A study of Mus musculus with 26 samples.

Results

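The miR-204, miR-211 and miR-200 microRNAs (miRNAs) make up 8 of the 1915 mature miRNA entries counted here in CA1, a field of the mouse hippocampus. They were chosen by name and not by a rule on their values, but with earlier results of these data known. The members are mmu-miR-204-5p, mmu-miR-204-3p and mmu-miR-211-5p on the one side, and the miR-200 family with mmu-miR-200a-3p, mmu-miR-200a-5p, mmu-miR-200b-3p, mmu-miR-200c-3p and mmu-miR-429-3p on the other. The prefix mmu, for mouse, is left out from here on. They were listed as marks of choroid plexus and ependyma, tissue of the neighbouring ventricle that can be carried into a CA1 dissection. That source was not tested. All 8 had enough reads to be tested, among 605 tested miRNAs.

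Small RNA from 26 CA1 samples was sequenced in 3 groups, all dissected under a microscope and frozen. There were 10 libraries from CamkdeltaC transgenic mice given the histone deacetylase inhibitor Vorinostat in drinking water, 7 libraries from CamkdeltaC transgenic mice given vehicle, and 9 libraries from wild type littermates given vehicle. In every group dosing began at 2 months of age and lasted 4 weeks, both sexes were used, and age at the end was 3 months. CamkdeltaC names a form of calcium/calmodulin-dependent protein kinase II delta whose excess in the heart causes heart failure. The sources used here give neither the transgene's promoter nor any animal's sex. Nothing in the labels says that the libraries come from separate animals, and p-values therefore reflect the variation among libraries.

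miRNAs are short RNAs that guide Argonaute proteins to messenger RNAs, and bases 2 to 8 from the 5′ end, the seed, decide most of the pairing. miR-204 is made from an intron of Trpm3 and is abundant in the epithelium of the choroid plexus, which makes cerebrospinal fluid, and in the retinal pigment epithelium; miR-211 is its near copy in Trpm1, a gene of melanocytes and retina. The miR-200 family is a hallmark of epithelial cells, where it represses the transcription factors Zeb1 and Zeb2 and so keeps cadherin junctions in place.

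The mature sequences are shown because the families are defined by their seeds, given in capitals, and because their likeness bears on how reads can be assigned. They are RefSeq entries on GRCm38.p6, the assembly that mm10 denotes, written 5′ to 3′, and all 8 names matched.
miR-204-5p: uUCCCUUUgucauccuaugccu
miR-211-5p: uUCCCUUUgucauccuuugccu
miR-204-3p: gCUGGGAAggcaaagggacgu
miR-200b-3p: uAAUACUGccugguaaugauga
miR-200c-3p: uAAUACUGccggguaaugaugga
miR-429-3p: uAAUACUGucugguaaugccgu
miR-200a-3p: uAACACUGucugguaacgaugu
miR-200a-5p: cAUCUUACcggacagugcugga

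miR-204-5p and miR-211-5p share a seed and differ at 1 base, A17U, counted from the 5′ end of miR-204-5p. miR-200b-3p, miR-200c-3p and miR-429-3p share another seed. miR-200b-3p and miR-200c-3p differ at U11G and A22G, and miR-200b-3p and miR-429-3p differ at C9U, A19C, U20C and A22U. The seed of miR-200a-3p differs from theirs at a single place, since miR-200a-3p and miR-200b-3p differ at C4U, U9C, C17U and U22A. The other arms, miR-204-3p and miR-200a-5p, have seeds of their own. No member held the same counts as another entry, but how reads shared by miR-204-5p and miR-211-5p were assigned is not stated, and their separation was not tested.

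The hairpins lie at 4 places in the genome. miR-204-5p maps to chr19:22750610-22750631 on the plus strand and miR-204-3p to chr19:22750649-22750669, within an intron of Trpm3 on the same strand. miR-211-5p lies at chr7:64205831-64205852 on the plus strand, within an intron of Trpm1. miR-429-3p (chr4:156053916-156053937), miR-200a-3p (chr4:156054911-156054932), miR-200a-5p (chr4:156054949-156054970) and miR-200b-3p (chr4:156055685-156055706) lie on the minus strand in introns of Ttll10, and Mir429 also overlaps an exon of the noncoding transcript Gm13648. miR-200c-3p lies apart from them, at chr6:124718324-124718346 on the minus strand, in an intron of the noncoding transcript Gm15884. Gene positions are from the GENCODE annotation of the same assembly.

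Read depth ran from 0.585 to 24.8 M miRNA counts per library (M, mega-counts). Wild type vehicle replicate 1 stood apart with 0.585 M, and transgenic Vorinostat replicate 8 had 3.89 M, so results are also given without them where they move. The column names carry a lane tag, L001 or L002, for 13 libraries each, and both lanes hold all 3 groups. Levels are in CPM, counts on a scale of 1e6 after division by the library total times its trimmed-mean (TMM) factor.

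miR-204-5p, the main arm of its hairpin, was the most abundant member and varied little. It had a lowest, median and highest level of 319, 438 and 583 CPM in the 10 transgenic Vorinostat libraries, 317, 434 and 513 CPM in the 7 transgenic vehicle libraries, and 258, 436 and 515 CPM in the 9 wild type vehicle libraries. The 3 groups covered the same span, and the lowest value was that of wild type vehicle replicate 1. Means were 439.7 ± 79.4 CPM with Vorinostat (SD, n = 10), 423 ± 73.0 CPM in transgenic vehicle (SD, n = 7) and 432 ± 78.0 CPM (SD, n = 9) in wild type vehicle.

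miR-211-5p, the copy with the same seed, had 21.2, 30.9 and 45.4 CPM as lowest, median and highest level with Vorinostat, 21.997, 29.6 and 36.2 CPM in transgenic vehicle, and 24.9, 29.1 and 38.9 CPM in wild type vehicle. It stood in a nearly fixed proportion to miR-204-5p, at 7.15 ± 0.79 reads per 100 reads of miR-204-5p (SD, n = 26), with a range from 5.97 to 9.68. miR-204-3p, the minor arm of the Mir204 hairpin, had 11.2, 14.95 and 30.2 CPM with Vorinostat, 10.3, 12.7 and 25.4 CPM in transgenic vehicle, and 13.7, 15.95 and 35.4 CPM in wild type vehicle. Its groups overlapped too, and its highest value came from wild type vehicle replicate 1.

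miR-200b-3p was the most abundant miRNA of the miR-200 family and varied widely within each group. Lowest, median and highest levels were 44.0, 80.5 and 216 CPM with Vorinostat, 29.8, 70.0 and 247 CPM in transgenic vehicle, and 18.5, 78.5 and 125 CPM in wild type vehicle. Highest of all was transgenic vehicle replicate 6, followed by transgenic Vorinostat replicate 2, and the ranges of the 3 groups overlapped over most of their length. miR-200a-3p, its neighbour in the same cluster, had 23.4, 39.6 and 119 CPM with Vorinostat, 15.4, 35.2 and 113 CPM in transgenic vehicle, and 10.2, 43.7 and 60.4 CPM in wild type vehicle, and was highest in the same libraries of the transgenic groups.

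miR-429-3p, the third hairpin of the cluster, had 3.78, 8.72 and 32.1 CPM with Vorinostat, 4.34, 12.9 and 28.4 CPM in transgenic vehicle, and 0.89, 6.97 and 22.95 CPM in wild type vehicle. The rarest member was miR-200c-3p, from the other miR-200 locus, with 0.75, 1.82 and 13.05 CPM with Vorinostat, 0.64, 1.98 and 7.43 CPM in transgenic vehicle, and 0, 2.44 and 5.96 CPM in wild type vehicle. Its 0 was in wild type vehicle replicate 1, where 3 counts, the limit that a count of 0 allows, would be 6.24 CPM, above all but 2 of the other values. miR-200a-5p, the minor arm of the Mir200a hairpin, had 3.21, 9.05 and 23.4 CPM with Vorinostat, 3.82, 5.78 and 9.74 CPM in transgenic vehicle, and 0.53, 7.76 and 125 CPM in wild type vehicle. The 125 CPM belonged to wild type vehicle replicate 1, and the next wild type vehicle library had 13.3 CPM.

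**Figure D1:**
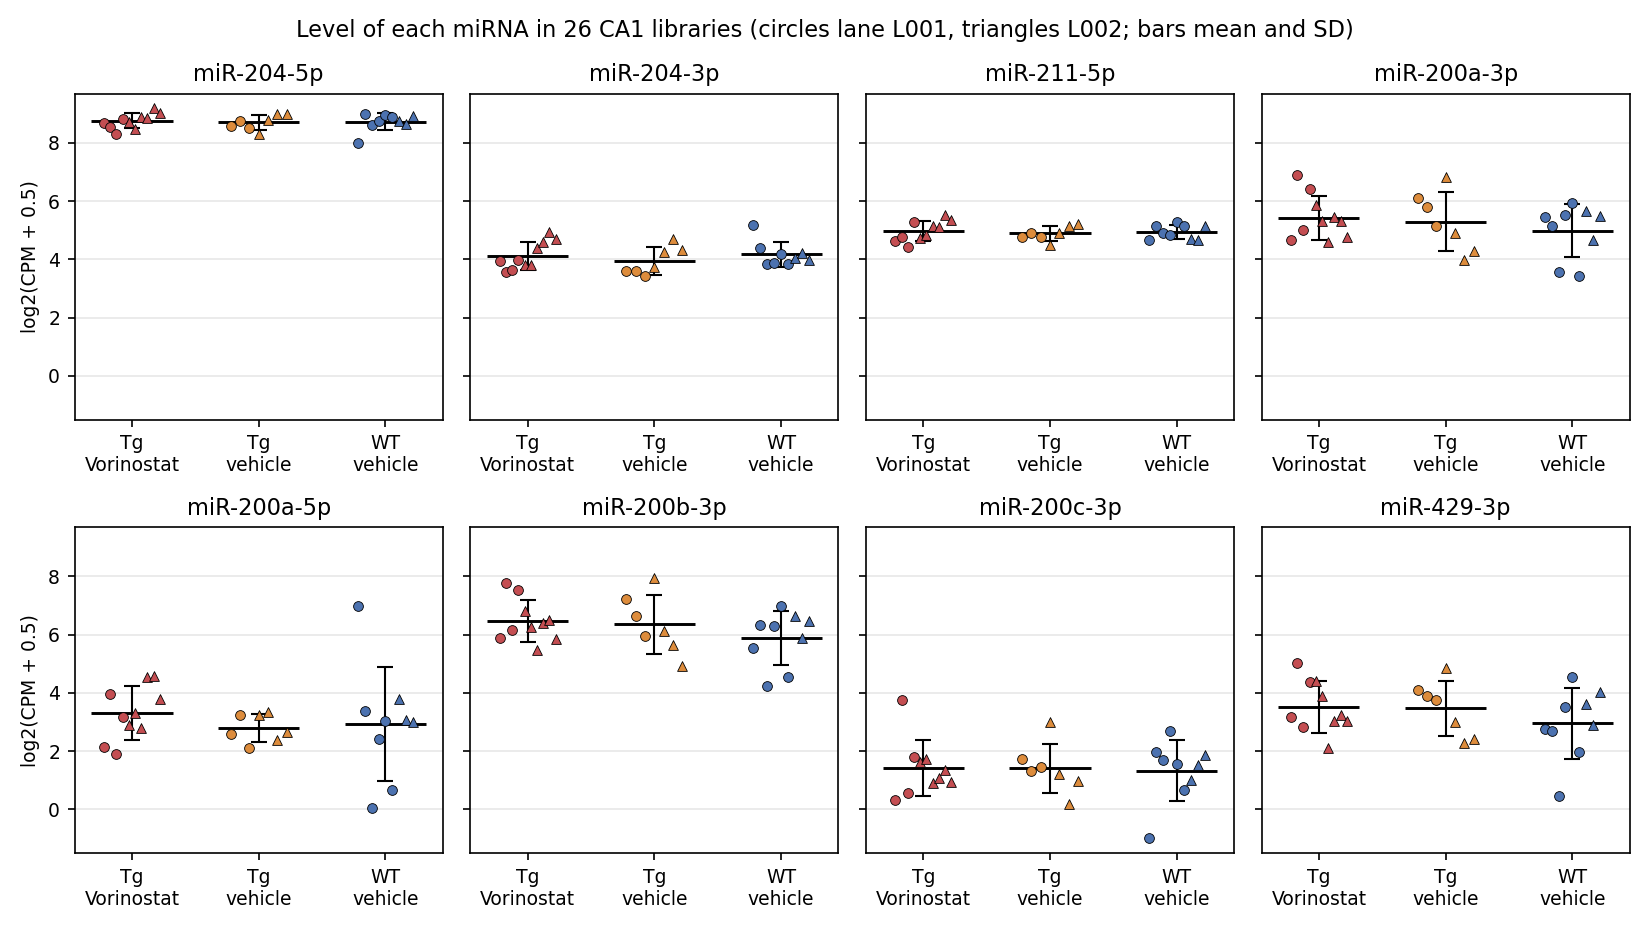
Level of each of the 8 miRNAs as log2(CPM + 0.5) in every library, by group (Tg, transgenic; WT, wild type), with circles for lane L001, triangles for L002, and bars for the mean and SD. miR-204-5p and miR-211-5p sit in narrow bands in all 3 groups, while the miR-200 members spread widely and transgenic vehicle replicate 6 and transgenic Vorinostat replicate 2 lie at the top of their groups for miR-200b-3p.

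By mean level the order was miR-204-5p, miR-200b-3p, miR-200a-3p, miR-211-5p, miR-204-3p, miR-200a-5p, miR-429-3p and miR-200c-3p. miR-204-5p was above miR-200b-3p in 26 of 26 libraries, and miR-200b-3p was above miR-200a-3p in 26 of 26. Further down, miR-200a-3p exceeded miR-211-5p in 17 of 26 libraries and miR-200a-5p exceeded miR-429-3p in 11 of 26, so neither pair of neighbours was separated beyond its spread. miR-211-5p exceeded miR-204-3p in 25 of 26 and miR-204-3p exceeded miR-200a-5p in 24 of 26. The ratio of miR-204-5p to miR-200b-3p ran from 1.28 in transgenic vehicle replicate 6 to 21.1 in wild type vehicle replicate 3.

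Both families differed in how much they varied between libraries of a group. After removal of group means, the SD of log2(CPM + 0.5) was 0.27 for miR-204-5p and 0.29 for miR-211-5p, at the 4.96 and 5.62 percentiles of the 605 tested miRNAs, whose median SD was 0.62. miR-204-3p stood at 0.46. The miR-200 members ran from 0.88 for miR-200b-3p and 0.89 for miR-200a-3p through 0.96 for miR-200c-3p and 1.03 for miR-429-3p to 1.32 for miR-200a-5p, at the 80.7 to 96.2 percentiles. Without the 2 shallow libraries miR-204-5p was at the 6.45 percentile, miR-211-5p at 15.4 and miR-200b-3p at 96.0. For miR-200a-5p it was 0.99 without wild type vehicle replicate 1. No test was made of these SDs.

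Within each family the main arms moved together from library to library. Correlations were taken over the 26 libraries on log2(CPM + 0.5) with group means removed, for 28 pairs of members, by a two-sided permutation test. All members share a library's total and scaling factor. Of the 28 pairs 11 passed after adjustment over the pairs, 10 positive and 1 negative. Pairs of the other tested miRNAs were not tested in this way, so these counts have no background share beside them.

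miR-204-5p and miR-211-5p, which come from different chromosomes, had r = 0.847 and rho = 0.878 (permutation p = 1e-05 for both, the smallest that the permutations can give; adjusted p = 7e-05). Without the 2 libraries farthest from the median of miR-204-5p, r was 0.880, and within lanes it was 0.785 in L001 and 0.938 in L002. The arms of the Mir204 hairpin gave r = 0.299 and rho = 0.569 (permutation p = 0.137 and 0.00289; adjusted p = 0.242 and 0.0101), and r = 0.742 without the 2 farthest libraries, which include wild type vehicle replicate 1. Within lanes that r was -0.48 in L001, which holds this library, and 0.840 in L002.

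miR-200a-3p and miR-200b-3p, 2 hairpins of the chromosome 4 cluster, had r = 0.949 and rho = 0.9501 (permutation p = 1e-05 for both, adjusted p = 7e-05), with 0.946 in lane L001 and 0.953 in L002. miR-200b-3p and miR-429-3p had r = 0.908 and rho = 0.902 (permutation p = 1e-05 for both, adjusted p = 7e-05), with 0.907 in L001 and 0.886 in L002. Leaving out the 2 libraries farthest from the median gave 0.934 and 0.884 for these pairs. miR-200c-3p, transcribed from chromosome 6, followed miR-200b-3p less closely, with r = 0.597 and rho = 0.692 (permutation p = 0.00109 and 0.00015; adjusted p = 0.00509 and 0.000840), 0.635 without the 2 farthest libraries, 0.521 in L001 and 0.775 in L002. The arms of the Mir200a hairpin had r = 0.502 and rho = 0.470 (permutation p = 0.00722 and 0.0157; adjusted p = 0.0202 and 0.0439), 0.434 without the 2 farthest, 0.699 in L001 and 0.350 in L002.

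**Figure D2:**
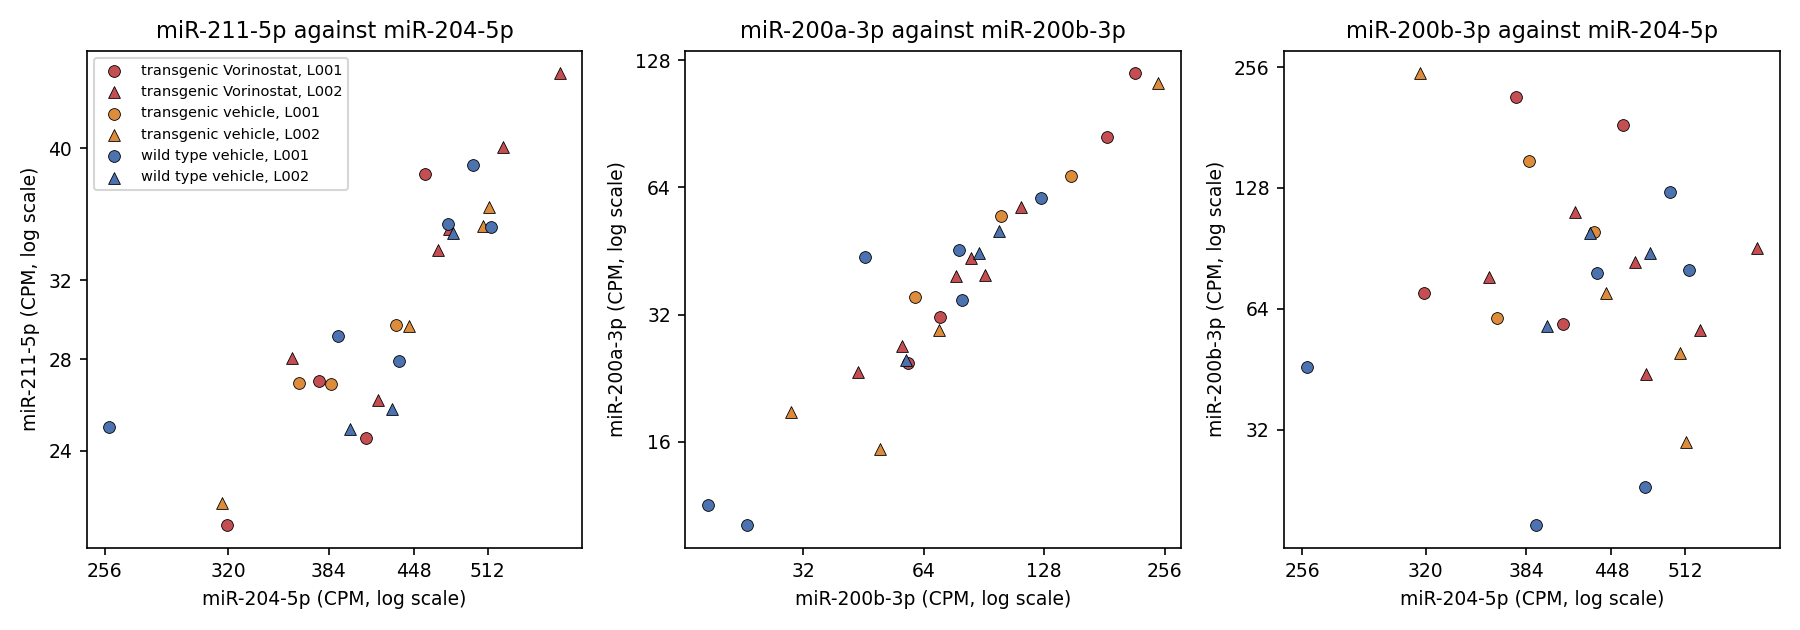
Levels of 3 pairs of miRNAs in the 26 libraries (CPM, log scales; colours give the group, circles lane L001, triangles L002). miR-211-5p follows miR-204-5p and miR-200a-3p follows miR-200b-3p in all groups, while miR-200b-3p spreads widely at any level of miR-204-5p.

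Between the families no such relation held in all libraries together. miR-204-5p and miR-200b-3p had r = -0.14 and rho = -0.16 (permutation p = 0.490 and 0.441; adjusted p = 0.549 and 0.537), and r = -0.29 without the 2 farthest libraries. Over the 15 pairs that join a miR-204 or miR-211 member to a miR-200 member, r had a median of -0.18 and ran from -0.56 to 0.597, and 2 pairs passed. miR-204-3p and miR-200a-5p, both minor arms, had r = 0.597 and rho = 0.504 (permutation p = 0.000710 and 0.00897; adjusted p = 0.00398 and 0.0279), and 0.357 without the 2 farthest libraries. miR-204-3p and miR-200c-3p had r = -0.56 and rho = -0.41 (permutation p = 0.00262 and 0.0388; adjusted p = 0.00959 and 0.0836), and -0.45 without the 2 farthest. Neither of these passed without the 2 shallow libraries, when 0 of the 15 pairs did.

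The lanes differed in the sign of most of these 15 pairs. In L001 the median r was 0.275, with 12 of 15 pairs positive, and in L002 it was -0.60, with 3 of 15 positive. In L002 8 of the 15 pairs passed, all negative, and in L001 1 pair passed, positive. The highest r of these pairs in L001 was 0.843, for the minor arms miR-204-3p and miR-200a-5p. Both were highest in wild type vehicle replicate 1, the shallowest library, which is in L001. Correlations within L001 were not taken without that library. miR-204-5p and miR-200b-3p gave r = 0.316 in L001 (permutation adjusted p = 0.426, n = 13) and r = -0.61 in L002 (permutation adjusted p = 0.0442, n = 13). The difference between the lanes was not tested.

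**Figure D3:**
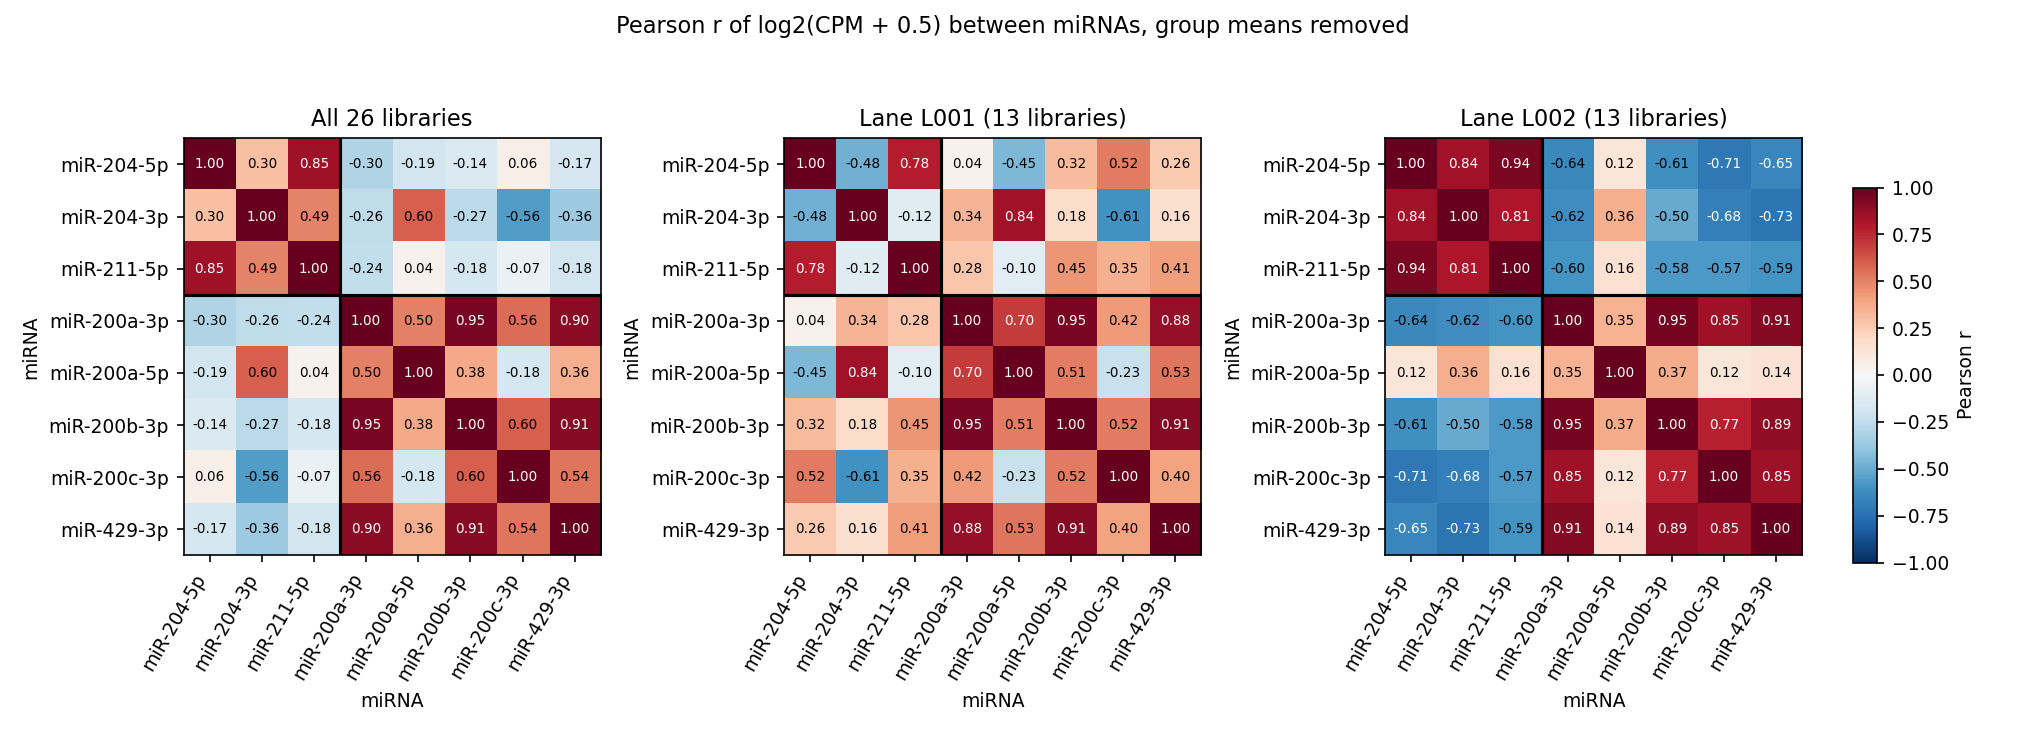
Pearson r between the 8 miRNAs on log2(CPM + 0.5), group means removed, in all 26 libraries and within each lane, with lines dividing the miR-204 and miR-211 members (upper left) from the miR-200 members (lower right). The miR-200 main arms form a red block in every panel, and the blocks that join both families are mostly pale red in L001 and blue in L002.

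The label of choroid plexus and ependyma was set against other miRNAs of these cells. Of the ciliated-cell list, which stands for ependyma, 4 of 9 were tested, all of miR-34b and miR-34c, which multiciliated cells make in quantity. The list's miR-449 entries were at or near 0 in these libraries, with 133 reads of miR-449a-5p, 4 of miR-449c-5p and 2 of miR-449b in all 26 together, and 0 reads of miR-449a-3p and miR-449c-3p. The 2 most abundant, miR-34c-5p and miR-34b-5p, had medians of 56.4 and 12.5 CPM. Summed over the list, levels ranged from 47.1 to 111 CPM with Vorinostat, from 51.9 to 208 CPM in transgenic vehicle and from 35.4 to 126 CPM in wild type vehicle. As descriptions across 26 libraries, the rho of the 4 tested miRNAs was 0.11 to 0.23 with miR-204-5p and -0.31 to -0.14 with miR-200b-3p.

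A cluster in an intron of Htr2c, the serotonin receptor gene that choroid plexus expresses most strongly, had 8 of 10 miRNAs tested. Its most abundant members, miR-1298-5p and miR-1298-3p, had medians of 286 and 20.1 CPM. The summed cluster ranged from 212 to 491 CPM with Vorinostat, from 202 to 398 CPM in transgenic vehicle and from 179 to 424 CPM in wild type vehicle. Its rho was -0.21 to 0.298 with miR-204-5p and -0.29 to 0.143 with miR-200b-3p. Without the 2 shallow libraries the rho with miR-204-5p ran from -0.35 to 0.477, with 0.415 for miR-1298-5p (0.298 with all libraries) and 0.477 for miR-1298-3p (0.290 with all). Htr2c is also expressed in neurons. Among miRNAs of other epithelia 4 of 5 were tested, led by miR-192-5p and miR-194-5p with medians of 325 and 158 CPM, and their rho was -0.29 to 0.305 with miR-204-5p and -0.19 to 0.309 with miR-200b-3p. Without the 2 shallow libraries these epithelial miRNAs were split in sign. Their rho with miR-204-5p was then -0.54 for miR-194-5p, -0.30 for miR-203-3p, 0.253 for miR-192-5p and 0.268 for miR-375-3p. Of the ciliated-cell list, miR-34c-5p and miR-34b-5p had reads in all 26 libraries, and the miR-449 entries were nearly absent. The rho of the Htr2c cluster with miR-204-5p was at most moderate and moved with the 2 shallow libraries. No relation between miR-204-5p and miR-200b-3p was detected over all libraries. The families are called here by their names and not by a cell type, and choroid plexus and ependyma as their source were not tested. In tissue samples such as these, fewer cells of a type and less RNA per cell cannot be told apart.

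The relatives of the 8 members were nearly absent. miR-141-3p, the partner of miR-200c on chromosome 6, which differs from miR-200a-3p by C17A and U22G, had 136 reads in all libraries, and miR-200b-5p had 153. miR-211-3p and miR-141-5p had 3 reads each, and miR-200c-5p and miR-429-5p had 0. None of these 6 was tested.

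Among all other tested miRNAs, the most like miR-204-5p across libraries were miR-216b-5p (rho = 0.773), miR-6944-3p (0.714), the neuronal miR-128-3p (0.700), miR-7093-3p (0.699) and miR-3059-5p (0.662), over 26 libraries with group means removed. Of these miR-128-3p is the most abundant, with a mean of 229286 CPM. miR-216b-5p and miR-7093-3p were rare, with means of 0.84 and 2.13 CPM and a lowest level of 0 for each. The miRNAs most like miR-200b-3p were miR-135b-5p (0.893), miR-652-3p (0.667), miR-181b-5p (0.623), miR-135a-5p (0.610) and miR-129-2-3p (0.598). The median rho of all other miRNAs was 0.037 with miR-204-5p and 0.011 with miR-200b-3p. miR-135b-5p kept a rho of 0.920 without the 2 shallow libraries, and averaged 29.3 ± 15.6 CPM with Vorinostat (SD, n = 10), 32.1 ± 20.2 CPM in transgenic vehicle (SD, n = 7) and 22.3 ± 12.5 CPM (SD, n = 9) in wild type vehicle.

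The first comparison concerned genotype, with transgenic and wild type animals both on vehicle. miR-204-5p averaged 423 ± 73.0 CPM in transgenic vehicle and 432 ± 78.0 CPM in wild type vehicle, a log2 difference of -0.029 (SE 0.15, 95% interval -0.34 to 0.28). miR-211-5p had a log2 difference of -0.066 (95% interval -0.41 to 0.28) and miR-204-3p one of -0.16 (-0.66 to 0.34). All 3 intervals leave out a change of 1 log2 unit in either direction.

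The miR-200 main arms had wider intervals. miR-200b-3p averaged 101 ± 75.2 CPM in transgenic vehicle (SD, n = 7) and 68.5 ± 35.3 CPM (SD, n = 9) in wild type vehicle, a log2 difference of 0.55 (SE 0.41, 95% interval -0.29 to 1.398), and the groups overlapped. Without transgenic vehicle replicate 6 the log2 difference was 0.15. miR-200a-3p averaged 47.8 ± 34.3 CPM in transgenic vehicle and 36.2 ± 17.4 CPM in wild type vehicle, a log2 difference of 0.41 (SE 0.42), or 0.040 without the same library. miR-429-3p gave 0.39 (SE 0.49) and 0.056 without that library, and miR-200c-3p gave -0.10 (SE 0.52) and -0.58 without that library. miR-200a-5p averaged 6.78 ± 2.38 CPM in transgenic vehicle and 19.7 ± 39.6 CPM in wild type vehicle, a log2 difference of -1.11 (SE 0.72), which was 0.026 without wild type vehicle replicate 1.

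In this comparison 0 of the 605 miRNAs passed an adjusted p of 0.05 in the edgeR quasi-likelihood test with Benjamini-Hochberg adjustment (0%), and 13 had an unadjusted p under 0.05 (2.15%). None of the 8 members was among either, with adjusted p from 0.980 to 0.986. The members' log2 differences were above 0 for 3 of 8, against 54.4% of all tested, and their median was -0.048 against 0.025 for all. The count was 3 of 8 with RLE factors (scaling by a median ratio to a reference library), with library totals only and with DESeq2 too. It was 4 of 8 with limma voom (56.7% of all tested) and with lane as a covariate (52.4%). Within lane L002 it was 6 of 8 (50.4%). Leaving out 1 library gave counts from 3 to 5 of 8. On simulated counts for this comparison the test recovered 71% of changes of 1 log2 unit and 100% of changes of 2 units, among 100 changed miRNAs of each size, and called 10 of 405 unchanged ones. These shares are averages over miRNAs of all spreads. By edgeR's estimate of spread the miR-200 members lay at the 81.3 to 97.7 percentiles. The adjustment is also milder with that many changes than where 0 pass. The shares therefore do not give the recovery for the miR-200 members.

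The second comparison asked what Vorinostat did in transgenic mice. miR-204-5p averaged 439.7 ± 79.4 CPM with Vorinostat (SD, n = 10) and 423 ± 73.0 CPM in transgenic vehicle (SD, n = 7), a log2 difference of 0.054 (SE 0.15, 95% interval -0.25 to 0.36). miR-200b-3p averaged 99.2 ± 56.8 CPM with Vorinostat and 101 ± 75.2 CPM in transgenic vehicle, a log2 difference of -0.023 (SE 0.40, 95% interval -0.85 to 0.81). It was -0.29 without transgenic Vorinostat replicate 2 and 0.32 without transgenic vehicle replicate 6. miR-200a-5p had the largest difference of the members, with 11.3 ± 7.20 CPM with Vorinostat and 6.78 ± 2.38 CPM in transgenic vehicle (log2 difference 0.72, SE 0.66, 95% interval -0.63 to 2.08). The value of miR-200c-3p was 0.25 (SE 0.50), and -0.52 without transgenic Vorinostat replicate 2.

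Again 0 of 605 miRNAs passed (0%), with edgeR unadjusted p under 0.05 for 21 (3.47%), and no member was among them (adjusted p from 0.836 to 0.982). Log2 differences were above 0 for 7 of 8 members, against 49.3% of all tested, with a median of 0.084 against -0.0098. That count rests on the scaling: it was 4 of 8 with RLE factors (41.5% of all tested) and with DESeq2 (41.5%), and 3 of 8 with library totals only (34%). Those scalings moved the median of all tested miRNAs to -0.072, -0.072 and -0.14, and the members' median was then 0.013, 0.012 and -0.056. Leaving out 1 library gave counts from 4 to 8 of 8. Deviations of same-numbered transgenic libraries were positively correlated, as described with the processing. A fit with the 7 such pairs as a block passed 5 of 605 (0.826%), none of them a member. In that fit 150 (24.8%) had an unadjusted p under 0.05. Of the members this held for miR-200a-5p, with a log2 difference of 0.85 (edgeR p = 0.0374, adjusted p = 0.169). miR-200a-5p and miR-204-3p were higher with Vorinostat in 6 of 7 pairs, miR-204-5p, miR-211-5p, miR-200a-3p, miR-200b-3p and miR-429-3p in 5 of 7, and miR-200c-3p in 3 of 7. The pair counts were taken with TMM factors only and not over all tested miRNAs. Whether they too rest on the scaling was not tested.

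The third comparison was between transgenic animals given Vorinostat and wild type animals given vehicle. Log2 differences were 0.025 for miR-204-5p (SE 0.14), 0.048 for miR-211-5p and 0.027 for miR-204-3p. They were 0.53 for miR-200b-3p (SE 0.38, 95% interval -0.25 to 1.31), 0.45 for miR-200a-3p, 0.45 for miR-429-3p and 0.14 for miR-200c-3p. Without transgenic Vorinostat replicate 2 these 4 were 0.27, 0.14, 0.13 and -0.62. miR-200b-3p averaged 99.2 ± 56.8 CPM with Vorinostat and 68.5 ± 35.3 CPM in wild type vehicle, and the groups overlapped. miR-200a-5p gave -0.39 (SE 0.65), and 0.73 without wild type vehicle replicate 1. Here too 0 of 605 passed (0%), with edgeR unadjusted p under 0.05 for 19 (3.14%), no member among them and an adjusted p of 0.99975 for each. Log2 differences were above 0 for 7 of 8 members, against 52.9% of all tested, with a median of 0.095 against 0.014. Here the count was 4 of 8 with RLE factors (42.3% of all tested), library totals only (35.7%) and DESeq2 (41.7%), with miR-204-5p, miR-204-3p and miR-211-5p below 0 in each, and the median of all tested was -0.052, -0.081 and -0.047. Leaving out 1 library gave counts from 4 to 7 of 8. These 3 comparisons share libraries and are not independent of each other.

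**Figure D4:**
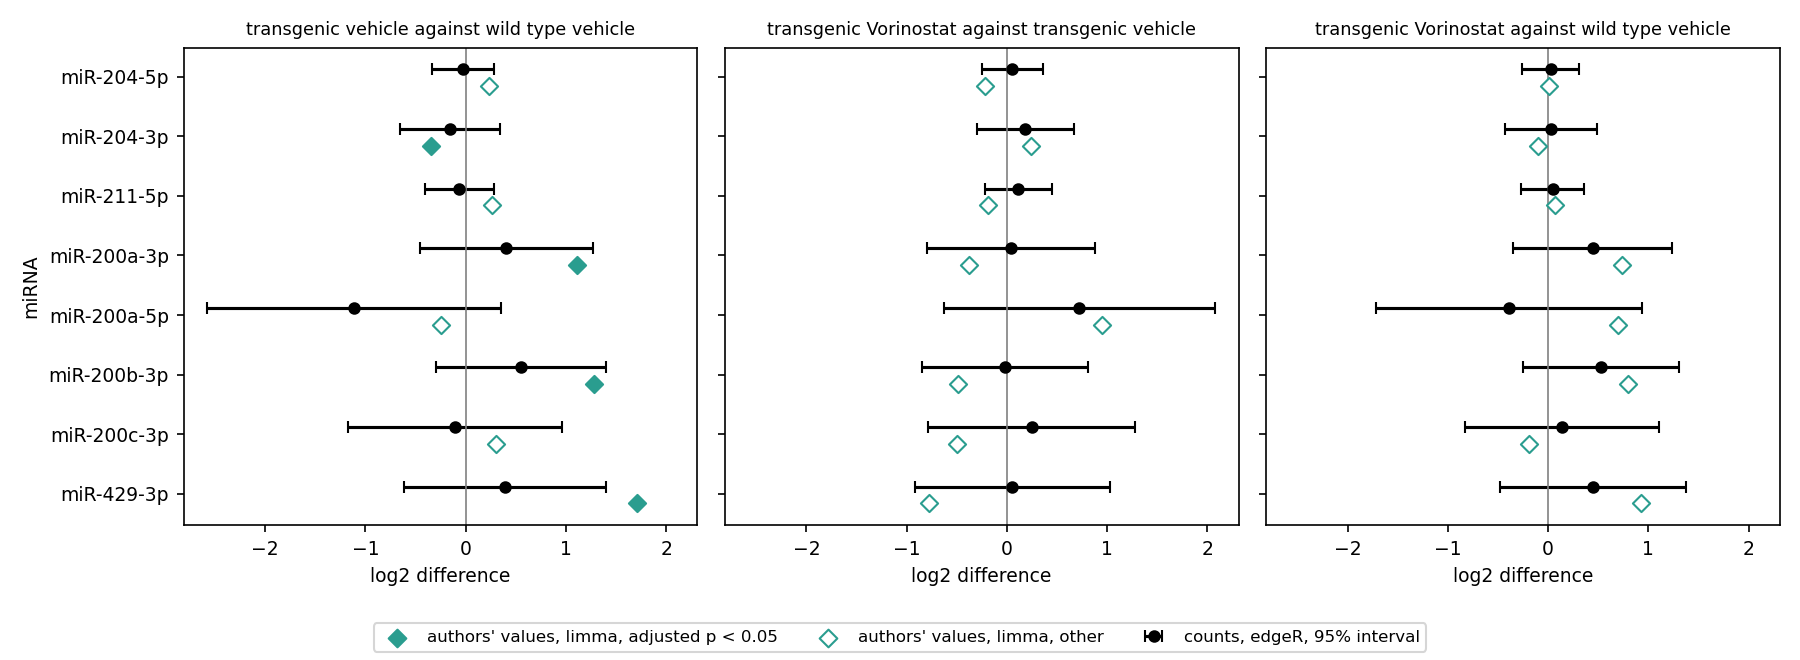
Log2 difference of each miRNA in the 3 comparisons, from the counts (black, edgeR, with 95% intervals) and from the authors' deposited normalized values (diamonds, limma, filled where the adjusted p is under 0.05). Every black interval includes 0, and 4 diamonds are filled in the comparison of transgenic vehicle with wild type vehicle.

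The authors' deposited table of normalized log2 values gave another picture of the same libraries. There miR-200b-3p stood above miR-204-5p. On that log2 scale miR-200b-3p averaged 10.9 ± 0.71 with Vorinostat (SD, n = 10), 11.4 ± 0.48 in transgenic vehicle (SD, n = 7) and 10.1 ± 0.74 in wild type vehicle (SD, n = 9). miR-204-5p averaged 8.09 ± 0.24 with Vorinostat, 8.31 ± 0.19 in transgenic vehicle and 8.08 ± 0.36 in wild type vehicle. The means of miR-429-3p, miR-200a-5p and miR-200c-3p lay below that of miR-204-5p in every group. That of miR-200a-3p lay above it with Vorinostat (8.39) and in transgenic vehicle (8.76), and below it in wild type vehicle (7.65). miR-204-5p was above miR-200b-3p in 0 of 26 libraries in that table, against 26 of 26 by counts. Set against log2(CPM + 0.5), the deposited value of miR-200b-3p was higher by 4.43 with Vorinostat, 5.03 in transgenic vehicle and 4.22 in wild type vehicle on average. The correlation across libraries between the deposited value and log2(CPM + 0.5) had a median of 0.740 over the 605 miRNAs in both, and was 0.697 for miR-200b-3p and 0.753 for miR-204-5p. No source used here says how these values were normalized.

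With limma on that table, 366 of 674 miRNAs (54.3%) passed an adjusted p of 0.05 between transgenic and wild type vehicle, so that passing was the more common outcome for any miRNA. Of the members 4 passed, miR-200b-3p (1.28, limma adjusted p = 0.00420), miR-200a-3p (1.11, 0.00780) and miR-429-3p (1.71, 0.00190) with higher and miR-204-3p (-0.34, 0.0271) with lower values in transgenic vehicle. Between Vorinostat and transgenic vehicle 360 of 674 (53.4%) passed in limma and no member did, with miR-429-3p nearest (-0.78, adjusted p = 0.0591). Between Vorinostat and wild type vehicle 6 of 674 (0.89%) passed and no member did.

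With the authors' deposited values miR-204-5p and miR-211-5p had r = 0.903, miR-200a-3p and miR-200b-3p 0.9497, and miR-204-5p and miR-200b-3p 0.099. Of the 10 pairs within the miR-200 family 9 passed there, against 7 by counts. Of the 3 pairs among miR-204-5p, miR-204-3p and miR-211-5p 1 passed, against 2 by counts: miR-204-3p had r = 0.108 with miR-211-5p in the authors' deposited table, against 0.493 by counts, and 0.036 with miR-204-5p, against 0.299 by counts. In the authors' deposited table of co-expression modules, which were built on these libraries, 6 members were in the turquoise module, which holds 404 of 674 miRNAs: miR-204-5p (membership 0.692), miR-211-5p (0.613), miR-200c-3p (0.512), miR-429-3p (0.420), miR-200b-3p (0.378) and miR-200a-3p (0.266). The minor arms miR-204-3p (0.814) and miR-200a-5p (0.612) were in the blue module, which holds 197.

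The balance of arms set wild type vehicle replicate 1 apart from the other 25 libraries. The hairpins of Mir204 and Mir200a are shown, with the 5p arm and then the 3p arm in capitals. They were chosen because both arms of each are among the members.
Mir204: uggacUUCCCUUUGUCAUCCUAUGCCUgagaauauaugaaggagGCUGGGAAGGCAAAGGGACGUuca
Mir200a: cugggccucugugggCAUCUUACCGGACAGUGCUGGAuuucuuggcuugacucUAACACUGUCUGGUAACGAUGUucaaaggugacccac

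Mir204 spans chr19:22750605-22750672 and Mir200a chr4:156054896-156054985, and the printed strand is the transcribed one. In Mir200a the 5p arm is the rarer one, and its share of the reads of both arms was 19.98 ± 11.1% with Vorinostat (SD, n = 10), 15.8 ± 7.97% in transgenic vehicle (SD, n = 7) and 14.5 ± 6.99% in wild type vehicle without replicate 1 (SD, n = 8). In wild type vehicle replicate 1 it was 74.1%, or 60 of 81 reads (exact 95% binomial interval 63.1 to 83.2%), against 4.48 to 37.1% in the other 25 libraries. With that library the wild type vehicle mean was 21.1 ± 20.9% (SD, n = 9). The median share was 9.80% over the 13 libraries of lane L001 and 23.4% over the 13 of L002.

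The 3p arm of Mir204 behaved likewise in that library. Its share was 3.82 ± 0.73% with Vorinostat (SD, n = 10), 3.52 ± 0.79% in transgenic vehicle (SD, n = 7) and 3.45 ± 0.48% in wild type vehicle without replicate 1 (SD, n = 8), and 12.1% in wild type vehicle replicate 1, or 17 of 141 reads (exact 95% binomial interval 7.18 to 18.6%). The other 25 libraries lay between 2.60 and 4.92%. Over all 167 hairpins with both arms tested, wild type vehicle replicate 1 had the highest minor-arm share of all libraries in 39. Transgenic vehicle replicate 6 had it in 15 and transgenic Vorinostat replicate 8 in 14. Shares from few reads scatter more, and wild type vehicle replicate 1 had 0.585 M counts. The part of counting error in the 39 was not tested. Intervals cover counting error only, since reads without molecular identifiers are not independent molecules.

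**Figure D5:**
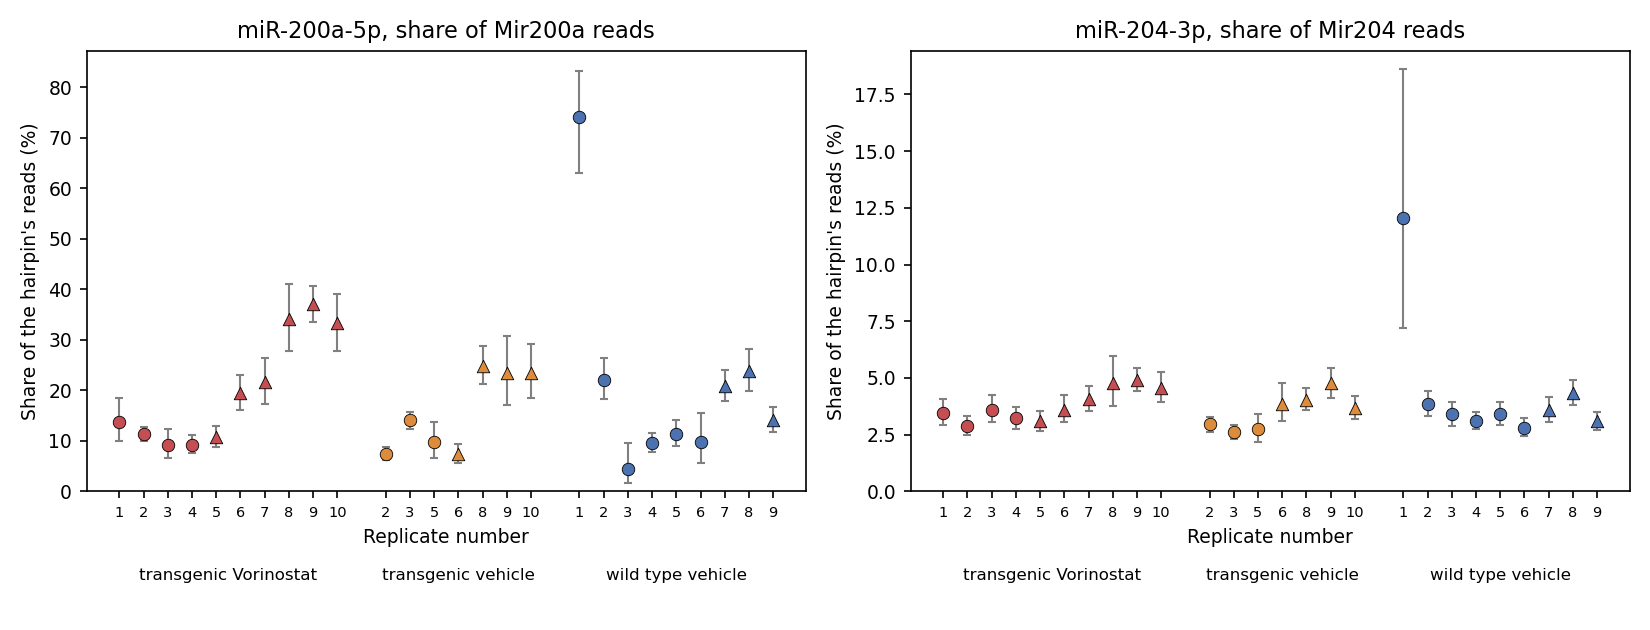
Share of the minor arm in the reads of Mir200a (left, miR-200a-5p) and Mir204 (right, miR-204-3p) in each library, in percent, with exact 95% binomial intervals, by group and replicate number (circles lane L001, triangles L002). Wild type vehicle replicate 1 lies above every other library in both panels, at 74.1% and 12.1%.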

How the data were processed

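Small RNA libraries (TruSeq Small RNA kit, single reads of 50 bp) were quantified by the authors, who deposited raw counts per mature miRNA. Per the submitters' processing notes the tools include FastQC 0.11.5 and the build is mm10; aligner, annotation and counting are not stated. The authors also deposited normalized values, read as log2 from their size, and module memberships, a score from -1 to 1 with p-values per the file headers; these p-values were not used.

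Counts were tested in R 4.3.3 with edgeR 4.0.16 (TMM, filterByExpr at a count of 10 in the smallest group's number of libraries and 15 in total, 1 model of 3 groups without covariates, two-sided). Alternatives were RLE factors, library totals only, DESeq2 1.42.0, voom of limma 3.58.1, no filter, a mean of 10 CPM, lane as a covariate, each lane alone, a replicate block, each library left out, both shallow libraries left out, and limma on the authors' values. Correlations used 1e+05 permutations, drawn with numpy 2.4.6, and the exact binomial intervals came from scipy 1.17.1. The edgeR script was tested on simulated data.

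Named are the 8 members, the 2 most abundant miRNAs of each marker list and the 5 most like miR-204-5p and miR-200b-3p; the members and lists were chosen with earlier results of these data known. The 5 miRNAs that pass with the block are named because a count turns on them, after their values were seen.

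The pairing was checked on deviations from group means. Same-numbered transgenic vehicle and transgenic Vorinostat libraries correlated in 7 of 7 pairs (r 0.257 to 0.639). For wild type vehicle, r ran from -0.50 to 0.513 with transgenic vehicle over 6 numbers. With transgenic Vorinostat it ran from -0.58 to 0.626 over 9 numbers. These r were negative for numbers 1, 2 and 9 and positive, at 0.24 or higher, for the rest. Libraries of different numbers were not compared, so whether a shared number makes libraries alike was not tested. The block over the 7 transgenic pairs was added after seeing the data. All 8 members passed the filter, so the exact tests planned for members below it had no member.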

Additional observations from a re-analysis of the deposited data

Results flagged for a closer look

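Of 24 sets of CPM values (8 miRNAs in 3 groups), 5 held a library far from the others of its group by Dixon's criterion, which chance meets in about 1 of 20 sets. Wild type vehicle replicate 1 was lowest for miR-204-5p at 258 CPM, where the next library had 391 CPM. It was highest for miR-204-3p at 35.4 CPM, with 20.6 CPM in the next library, and for miR-200a-5p at 125 CPM, with 13.3 CPM in the next. This library had the lowest depth of all, 0.585 M (mega-counts). For miR-200c-3p transgenic Vorinostat replicate 2 was highest of its group at 13.05 CPM, with 3.01 CPM in the next library, and transgenic vehicle replicate 6 was highest of its group at 7.43 CPM, with 2.77 CPM in the next.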

How the results depend on the processing

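In edgeR 0 miRNAs passed in each comparison on counts under every alternative run, leaving out each library in turn included, except that the block over 7 transgenic pairs, added after seeing the data, passed 5 for Vorinostat against transgenic vehicle. For transgenic against wild type vehicle, Vorinostat against transgenic vehicle and Vorinostat against wild type vehicle in turn, DESeq2 passed 0 too, with 18, 26 and 29 unadjusted p under 0.05, and limma voom 0, with 7, 16 and 23. On the authors' values limma passed 366, 360 and 6. The cause was not tested. The self-test called 10 of 405 unchanged miRNAs, so calls near the threshold are not exact. Depth limits the rarest members most: miR-200c-3p had 932 reads in all libraries.

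No single difference of the 8 members passed in the counts-based alternatives, where 59 of 269 values changed sign. Most are of members whose value lay near 0. With RLE factors they were -0.014 (miR-204-5p), -0.053 (miR-200a-3p) and -0.024 (miR-429-3p) for Vorinostat against transgenic vehicle, and -0.048 (miR-204-5p), -0.059 (miR-204-3p) and -0.034 (miR-211-5p) for Vorinostat against wild type vehicle. With library totals only they were -0.082 (miR-204-5p), -0.030 (miR-211-5p), -0.11 (miR-200a-3p) and -0.083 (miR-429-3p) for Vorinostat against transgenic vehicle, and -0.090 (miR-204-5p), -0.086 (miR-204-3p) and -0.073 (miR-211-5p) for Vorinostat against wild type vehicle. With DESeq2 they were -0.014 (miR-204-5p), -0.055 (miR-200a-3p) and -0.031 (miR-429-3p) for Vorinostat against transgenic vehicle, and -0.055 (miR-204-5p), -0.018 (miR-204-3p) and -0.044 (miR-211-5p) for Vorinostat against wild type vehicle. With limma voom they were 0.35 (miR-200a-5p) for transgenic against wild type vehicle, and 0.11 (miR-200b-3p) for Vorinostat against transgenic vehicle, and 0.84 (miR-200a-5p) and -0.15 (miR-200c-3p) for Vorinostat against wild type vehicle. With a mean of at least 10 CPM they were 0.011 (miR-200b-3p) for Vorinostat against transgenic vehicle. With lane as a covariate they were 0.031 (miR-200c-3p) for transgenic against wild type vehicle, and -0.025 (miR-204-5p) and -0.13 (miR-204-3p) for Vorinostat against wild type vehicle. With lane L001 alone they were -0.047 (miR-204-5p), -0.042 (miR-211-5p) and 0.31 (miR-200b-3p) for Vorinostat against transgenic vehicle, and -0.17 (miR-204-5p), -0.45 (miR-204-3p) and -0.25 (miR-211-5p) for Vorinostat against wild type vehicle. With lane L002 alone they were 0.021 (miR-204-5p), 0.21 (miR-204-3p), 0.10 (miR-211-5p), 0.22 (miR-200c-3p) and -0.077 (miR-429-3p) for transgenic against wild type vehicle, and -0.19 (miR-200a-3p), -0.47 (miR-200c-3p) and -0.065 (miR-429-3p) for Vorinostat against transgenic vehicle, and -0.087 (miR-200a-3p), 0.49 (miR-200a-5p), -0.10 (miR-200b-3p), -0.25 (miR-200c-3p) and -0.14 (miR-429-3p) for Vorinostat against wild type vehicle. With the replicate block over all libraries they were 0.14 (miR-200a-5p) for transgenic against wild type vehicle, and -0.066 (miR-200a-3p) and -0.075 (miR-429-3p) for Vorinostat against transgenic vehicle, and -0.010 (miR-204-5p), -0.090 (miR-204-3p), -0.0060 (miR-211-5p), 0.55 (miR-200a-5p) and -0.038 (miR-200c-3p) for Vorinostat against wild type vehicle. With both shallow libraries left out they were 0.029 (miR-200a-5p) for transgenic against wild type vehicle, and -0.089 (miR-204-5p), -0.026 (miR-211-5p) and 0.58 (miR-200a-5p) for Vorinostat against wild type vehicle. With the block over the 7 transgenic pairs they were 0.21 (miR-200b-3p) for Vorinostat against transgenic vehicle. With the authors' values they were 0.23 (miR-204-5p), 0.26 (miR-211-5p) and 0.31 (miR-200c-3p) for transgenic against wild type vehicle, and -0.22 (miR-204-5p), -0.19 (miR-211-5p), -0.38 (miR-200a-3p), -0.50 (miR-200c-3p) and -0.78 (miR-429-3p) for Vorinostat against transgenic vehicle, and -0.10 (miR-204-3p), 0.70 (miR-200a-5p) and -0.19 (miR-200c-3p) for Vorinostat against wild type vehicle. Leaving out each library in turn gave ranges of -0.12 to 0.045 (miR-204-5p), -0.28 to -0.061 (miR-204-3p), -0.13 to 0.011 (miR-211-5p), 0.040 to 0.57 (miR-200a-3p), -1.23 to 0.026 (miR-200a-5p), 0.15 to 0.71 (miR-200b-3p), -0.58 to 0.15 (miR-200c-3p), 0.056 to 0.68 (miR-429-3p) for transgenic against wild type vehicle; -0.062 to 0.11 (miR-204-5p), 0.068 to 0.28 (miR-204-3p), -0.0034 to 0.17 (miR-211-5p), -0.27 to 0.36 (miR-200a-3p), 0.53 to 0.83 (miR-200a-5p), -0.29 to 0.32 (miR-200b-3p), -0.52 to 0.67 (miR-200c-3p), -0.26 to 0.33 (miR-429-3p) for Vorinostat against transgenic vehicle; -0.084 to 0.068 (miR-204-5p), -0.089 to 0.10 (miR-204-3p), -0.023 to 0.10 (miR-211-5p), 0.14 to 0.58 (miR-200a-3p), -0.58 to 0.73 (miR-200a-5p), 0.27 to 0.69 (miR-200b-3p), -0.62 to 0.34 (miR-200c-3p), 0.13 to 0.74 (miR-429-3p) for Vorinostat against wild type vehicle. No member passed with the replicate block or any other pairing.

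The number of correlated pairs was 11 in all libraries, 6 in lane L001 and 17 in lane L002. The correlation of miR-204-5p with miR-200b-3p was -0.14, and 0.316 in L001, 0.056 by library totals only and 0.099 with the authors' values; that of miR-204-5p with miR-204-3p was 0.299, and -0.48 in L001. The cause was not tested.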

Other observations

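Lists of miRNAs of other cells gave the surroundings of the 8 members, as medians over 26 libraries of the 2 most abundant miRNAs of each list, with the rho of the list's tested miRNAs with miR-204-5p and with miR-200b-3p. Neuronal miR-128-3p and miR-129-5p had 221852 and 11946 CPM (5 of 5 tested, rho -0.22 to 0.700 and -0.13 to 0.286). Oligodendrocyte miR-219a-2-3p and miR-338-3p had 950.4 and 131 CPM (3 of 3, -0.47 to -0.30 and 0.295 to 0.441). Endothelial miR-126a-3p and miR-126a-5p had 5905 and 55.9 CPM (2 of 2, -0.34 to 0.562 and -0.065 to 0.221), and miR-143-3p and miR-145a-5p of the vessel wall and meninges 3046 and 32.7 CPM (2 of 2, -0.091 to 0.225 and -0.063 to 0.141). Erythrocyte miR-486a-5p and miR-451a had 474 and 191 CPM (3 of 3, -0.35 to -0.080 and -0.15 to 0.116), and miR-146a-5p and miR-142a-5p of microglia and leukocytes 326 and 22.3 CPM (3 of 4, -0.31 to 0.217 and 0.164 to 0.341). Sensory-cluster miR-182-5p and miR-183-5p had 63.0 and 45.4 CPM (3 of 3, -0.14 to 0.026 and 0.233 to 0.283), and hindbrain miR-10a-5p and miR-10b-5p 25.3 and 5.05 CPM (2 of 3, 0.039 to 0.165 and -0.068 to 0.193). Without the 2 shallow libraries the lowest rho with miR-204-5p were -0.66 for miR-142a-5p, -0.61 for miR-126a-5p and -0.57 for miR-144-3p. The highest with miR-204-5p was then 0.613 for miR-128-3p. Other miRNAs of the same lists were positive there, with 0.482 for miR-126a-3p and 0.170 for miR-146a-5p, so these lists did not move as one. With miR-200b-3p the rho then ran from -0.35 for miR-138-5p to 0.54 for miR-219a-2-3p. No miRNA of these lists passed the edgeR threshold in any of the 3 comparisons, and with the block over 7 transgenic pairs miR-129-5p and miR-182-5p did, beside miR-29c-3p, miR-339-5p and miR-379-5p.

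By lane, miR-204-3p averaged 20.996 ± 6.71 CPM in the 6 Vorinostat libraries of L002 and 13.3 ± 1.98 CPM in the 4 of L001, and 19.1 ± 5.18 CPM in the 4 transgenic vehicle libraries of L002 and 11.2 ± 0.80 CPM in the 3 of L001. In wild type vehicle it averaged 16.5 ± 1.503 CPM in the 3 libraries of L002 and 19.2 ± 8.39 CPM in the 6 of L001. These are means ± SD, and the lanes were not compared by a test.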
